A study of Rattus norvegicus with 14 samples.

Results

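The interleukin 1 (IL-1) family and the inflammasome were followed in rat peritoneal mesotheliomas through 10 genes: the ligands Il1a, Il1b, Il18 and Il33, the antagonist Il1rn, the decoy receptor Il1r2, the IL-33 receptor Il1rl1, and the inflammasome genes Nlrp3, Casp1 and Pycard. Each gene stood by its single-gene probe set with the highest mean log2(signal + 1) over the 14 arrays. Of the 10 genes 9 were measured, out of 14217 genes with such a probe set, and Nlrp3 was not analysed here. Amosite, MWCNT C and MWCNT D had each induced 3 of the 11 tumors, and MWCNT B had induced 2. By histology they were sarcomatoid (5 tumors), biphasic (3) and epithelioid (3), and they were set against 3 control peritoneal tissues. All 14 samples came from male Wistar rats, with 1 Affymetrix rat genome array each, and the tumors had developed after 1 intraperitoneal injection of multiwalled carbon nanotubes (MWCNT) or of amosite, an asbestos fiber, in artificial lung medium. The ages of the rats were not in the sample labels, and the control rats are called sham-treated in the labels and untreated in the study's methods. Inducer and tumor type were partly mixed, since no MWCNT B tumor was biphasic and no MWCNT C tumor was epithelioid.

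IL-1 alpha and IL-1 beta signal through the same receptor and switch on NF-kB and its inflammatory target genes. IL-1 beta and IL-18 are made as inactive precursors, which caspase 1 cuts once an inflammasome has formed from a sensor such as NLRP3 and the adaptor ASC, the product of Pycard. IL-33 is stored in the nucleus of barrier and stromal cells, is released when cells are damaged, and acts through ST2, the product of Il1rl1. The NLRP3 inflammasome is known as a sensor of asbestos and other particles in macrophages. Arrays measure mRNA only, so that cutting and release of these cytokines were not measured.

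The tissues differed widely in their cell markers. In tumors 9 of 12 measured mesothelial genes were called higher than in controls, and the mean of the list spanned log2 signals of 7.16 to 11.42 in tumors and 4.07 to 6.05 in controls, where Krt18, Bnc1 and Cdh3 were below a log2 signal of 5 in all 3 tissues. All 19 skeletal muscle genes were called lower in tumors, with list means of 5.04 to 5.58 in tumors and 14.41 to 14.48 in controls. Of 16 macrophage genes 15 were called higher, with list means of 9.13 to 11.79 in tumors and 7.44 to 8.62 in controls, and summed signals of 17668 to 76216 in tumors and 4396 to 10039 in controls. Among neutrophil genes 5 of 9 were called higher (list means of 5.39 to 7.67 in tumors and 3.57 to 4.57 in controls), while Camp stayed below a log2 signal of 5 on every array. For comparison, 24.5% of all probe sets were called higher in tumors and 10.4% lower. A pair of tumors carried pancreatic enzyme genes, with a mean over 14 such genes of 14.68 for amosite replicate 1 and 13.87 for MWCNT D replicate 2. The remaining 9 tumors had means of 5.32 to 5.78, and the controls of 4.04 to 4.62. MWCNT D replicate 2 also had the highest T cell list mean, 10.31, and the lowest mesothelial list mean of the tumors, 7.16. Array medians were 129.1 to 154.8 in tumors and 97.2 to 104.5 in controls, and the beta-actin 3′ minus 5′ log2 difference was 0.30 to 0.60 in tumors and -1.24 to -0.65 in controls. The part of these cells in the differences between tumors and controls was not tested. In such bulk samples, fewer cells of a type and less RNA per cell cannot be told apart.

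Of the 9 measured genes 6 were called higher in the 11 tumors than in the 3 controls: Il1b, Il18, Il33, Il1rl1, Casp1 and Pycard. None was called lower. A call was a Benjamini-Hochberg adjusted p from limma below 0.05 over all 31042 probe sets together with a fold change above 2. Of all probe sets 24.5% were called higher and 10.4% lower in this comparison. The median log2 fold change was 2.21 over the 9 genes and 0.34 over all probe sets. This upward shift of all probe sets depended on the scaling. After centring of every array at its own median, all probe sets together had a median of -0.10, and 15.5% of them were called higher and 17.7% lower, while 5 of the 9 genes were called higher, all but Il33 of the 6. With quantile normalization 16.9% were called higher and 15.4% lower, and all 6 genes were called.

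**Figure D1:**
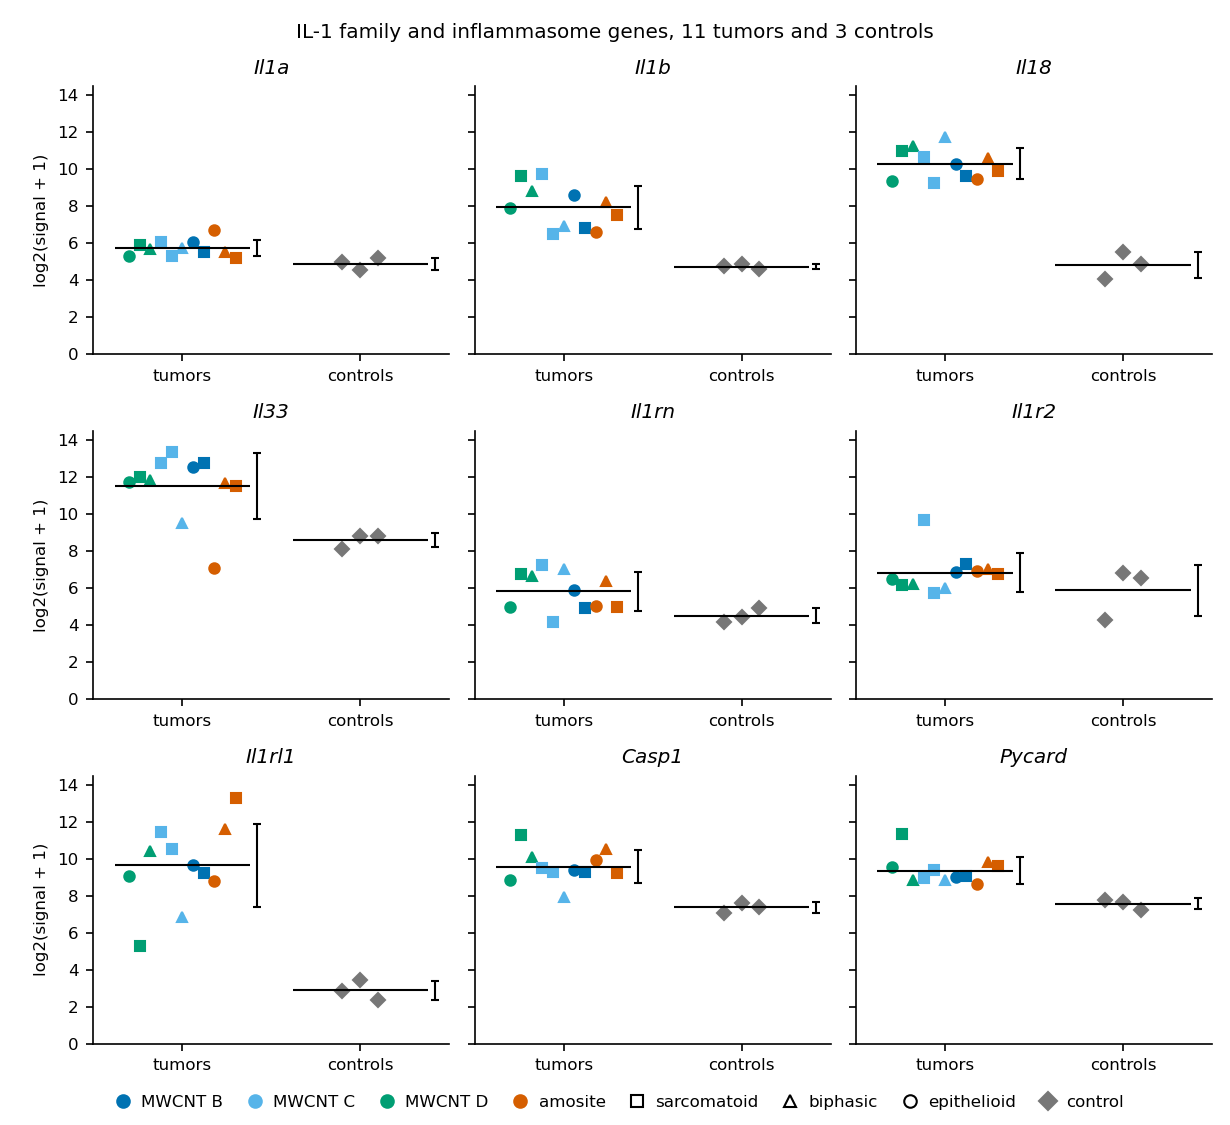
Log2(signal + 1) of the 9 genes in each of the 11 tumors (left, coloured by inducer and shaped by tumor type) and the 3 controls (right, gray), with the group mean (line) and SD (bar). Il18 and Il1rl1 have the widest gap between tumors and controls, and the tumors span 8.01 log2 units for Il1rl1 and 6.26 for Il33.

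Among the ligands, Il1b and Il18, whose products are substrates of caspase 1, were higher in every tumor than in every control. Il1b had a lowest log2 signal of 6.51, a median of 7.92 and a highest of 9.75 in the tumors, against 4.77, 4.85 and 4.59 in the controls. The lowest tumor, MWCNT C replicate 2, was still above all 3 controls, and the tumors themselves spanned 9.4-fold. The log2 fold change of Il1b was 3.20 (SE 0.65, limma adjusted p = 0.00085), and an exact permutation test over the 364 possible splits gave p = 0.0027, the smallest value that these splits can give. Il18, Il1rl1, Casp1 and Pycard had the same exact permutation p. After centring or quantile normalization it stayed at 0.0027 for Il1b, Il18 and Il1rl1. For Casp1 it was 0.0082 under both, and for Pycard 0.016 after centring and 0.014 after quantile normalization.

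Il18 had a lowest log2 signal of 9.25, a median of 10.30 and a highest of 11.74 in the tumors, against 4.07, 5.51 and 4.89 in the controls. The groups lay further apart than for Il1b, and the 11 tumors spanned only 5.61-fold. Il18 thus had a log2 fold change of 5.47 (SE 0.50, limma adjusted p = 7e-07).

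Il1a, a ligand that is active without cutting by caspase 1, moved least of the ligands. Its log2 signals in the tumors had a lowest value of 5.20, a median of 5.68 and a highest of 6.73, against 4.96, 4.55 and 5.18 in the controls. Every tumor was above every control, but the closest pair, amosite replicate 3 and control replicate 3, differed by less than the spread within either group. The log2 fold change of Il1a was 0.83 (SE 0.27, limma adjusted p = 0.018), below the fold threshold, and after each array was centred on its median it was 0.38 (adjusted p = 0.22). A second Il1a probe set gave 0.63 (adjusted p = 0.12). The exact permutation p of the main Il1a probe set was 0.011 (0.049 after adjustment over all exact tests), and 0.16 after centring. Of all probe sets 28.1% had every tumor above every control, as had Il1a, Il1b, Il18, Il1rl1, Casp1 and Pycard.

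Il1a and Il1b are shown with the 250 bases before their start as an example of neighboring ligand genes of which 1 was called and the other was not. The sequences are from RefSeq (build GRCr8, chr3:136990018-136990267 for Il1a and chr3:137036582-137036831 for Il1b, both on the minus strand), and capitals mark matches to TATAAA, and in Il1a also to TGANTCA.
Il1a: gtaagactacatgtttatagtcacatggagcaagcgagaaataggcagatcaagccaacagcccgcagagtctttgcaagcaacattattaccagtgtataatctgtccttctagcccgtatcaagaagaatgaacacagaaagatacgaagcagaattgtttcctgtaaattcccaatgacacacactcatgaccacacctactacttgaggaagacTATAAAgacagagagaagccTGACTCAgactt
Il1b: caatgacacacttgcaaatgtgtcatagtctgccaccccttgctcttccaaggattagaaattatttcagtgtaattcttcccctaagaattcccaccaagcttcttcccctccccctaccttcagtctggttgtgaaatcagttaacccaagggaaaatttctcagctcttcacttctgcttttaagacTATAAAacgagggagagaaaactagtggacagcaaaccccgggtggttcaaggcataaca
The TATA box TATAAA lay 32 to 27 bases before the start in Il1a and 60 to 55 bases before it in Il1b, and the AP-1 motif TGANTCA 12 to 6 bases before the start in Il1a. Of 33469 rat promoter windows of this length, 8.06% held TATAAA on the gene strand and 6.34% held TGANTCA on either strand. Neither window held the NF-kB motif GGGANTTCC (1.43% of windows), the CRE motif TGACGTCA (1.59%), the PU.1 motif AGGAAGT (7.08%) or the GAS motif TTCNNNGAA (7.67%), all searched on both strands. A match is a string of letters only, and binding was not measured. RefSeq places the Il1a gene at chr3:136979804-136990236, so most of its window lies inside that span. The Il1b window lies just outside its gene.

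Il33, the nuclear alarmin, was high in most tumors and varied widely among them. Its log2 signal in the tumors had a lowest value of 7.09, a median of 11.86 and a highest of 13.34, against 8.13, 8.81 and 8.83 in the controls. In 10 of the 11 tumors it was above the highest control, while amosite replicate 1 lay below the lowest control and MWCNT C replicate 3, at 9.51, lay just above the controls. Il33 had a log2 fold change of 2.93 (SE 0.98, limma adjusted p = 0.020). The exact permutation p was 0.019, or 0.073 after Benjamini-Hochberg adjustment over all exact tests. This call was lost when arrays were centred on their medians (2.49, adjusted p = 0.050) and when any 1 control was left out (adjusted p = 0.052 to 0.082). Without MWCNT D replicate 2 and amosite replicate 1, the pair with high pancreatic genes, it was 3.37 (adjusted p = 0.00047). A second Il33 probe set gave 3.81 (SE 1.06, adjusted p = 0.0075), with log2 signals of 6.76 to 13.44 in tumors and 6.85 to 7.95 in controls.

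RefSeq gives Il33 a pair of starts, and the downstream one is shown because it alone of the pair held 1 of the motifs searched (build GRCr8, chr1:237134696-237134945, plus strand, TATAAA in capitals, 29 to 24 bases before the start).
Il33: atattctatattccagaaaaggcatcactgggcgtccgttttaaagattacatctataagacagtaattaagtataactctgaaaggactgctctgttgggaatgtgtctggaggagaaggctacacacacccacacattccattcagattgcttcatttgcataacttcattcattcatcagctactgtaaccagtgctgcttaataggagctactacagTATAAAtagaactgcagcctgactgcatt
The array probe sets do not tell which start was used. The windows of Il18, Il1rn and Il1rl1 held none of these motifs, which says only that these letters are absent there, and Il1r2 was not matched. The Il1rn and Il1rl1 windows lie inside their annotated genes, before internal starts.

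Il1rn and Il1r2 encode the soluble antagonist and the decoy that restrain IL-1, and neither passed the test. Il1rn had a lowest log2 signal of 4.15, a median of 5.87 and a highest of 7.22 in the tumors, against 4.15, 4.42 and 4.93 in the controls. In 9 of the 11 tumors it was above the highest control, while MWCNT C replicate 2 and MWCNT B replicate 2 fell within the control range. Its log2 fold change was 1.32 (95% confidence interval 0.06 to 2.57, limma adjusted p = 0.070), and without MWCNT C replicate 2 it was 1.48 (adjusted p = 0.029). Il1r2 had a lowest log2 signal of 5.70, a median of 6.78 and a highest of 9.70 in the tumors, against 4.28, 6.79 and 6.53 in the controls. The groups overlapped, with 5 of 11 tumors above the highest control and MWCNT C replicate 1 far above the rest. Its log2 fold change was 0.96 (95% confidence interval -0.50 to 2.42, limma adjusted p = 0.25).

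Il1rl1, which encodes the IL-33 receptor ST2, showed the largest fold change of the 9 genes. Its log2 signal in the tumors had a lowest value of 5.29, a median of 9.67 and a highest of 13.30, against 2.84, 3.43 and 2.38 in the controls. Every tumor was above every control, and the tumors spanned 257-fold, with MWCNT D replicate 2 lowest and amosite replicate 3 highest. The log2 fold change of Il1rl1 was 6.76 (SE 1.23, limma adjusted p = 0.00036). Its size depended on the dim control signals: with every value below a log2 signal of 5 set to 5 it was 4.64 (adjusted p = 0.0093), below the 5.13 of Il18 under that setting, and with a pseudocount of 16 it was 5.22 (adjusted p = 0.0017). A second Il1rl1 probe set, with log2 signals of 3.72 to 7.95 in tumors and 3.19 to 4.66 in controls, gave 2.60 (SE 0.65, adjusted p = 0.0039). Both probe sets were thus called higher, by unequal amounts. ST2 is known from mast cells. Of 12 mast cell genes 2 were called higher in tumors, where 24.5% of all probe sets were. The mast cell list means were 4.67 to 8.99 in tumors and 5.43 to 6.78 in controls. The part of mast cells in the Il1rl1 change was not tested.

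Casp1 and Pycard, the protease and the adaptor of the inflammasome, both rose in the tumors. Casp1 had a lowest log2 signal of 7.94, a median of 9.39 and a highest of 11.26 in the tumors, against 7.07, 7.61 and 7.41 in the controls. Pycard had a lowest log2 signal of 8.61, a median of 9.04 and a highest of 11.34 in the tumors, against 7.79, 7.67 and 7.23 in the controls. Neither gene overlapped between tumors and controls, and both were highest in the same tumor, MWCNT D replicate 2. That tumor also had high pancreatic and T cell genes and the lowest mesothelial list mean of the tumors, 7.16. Log2 fold changes were 2.21 for Casp1 (SE 0.49, limma adjusted p = 0.0017) and 1.80 for Pycard (SE 0.43, adjusted p = 0.0027). With both tumors with high pancreatic genes left out, a setting chosen after seeing the data, the values were 1.98 for Casp1 (adjusted p = 0.0012) and 1.66 for Pycard (adjusted p = 5.6e-05).

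The windows of Casp1 and Pycard were picked for display because each held a match to the PU.1 motif AGGAAGT (capitals), after all motifs had been searched in the windows of all these genes. The match was on the gene strand in Casp1 and on the other strand in Pycard, where it reads ACTTCCT (RefSeq, build GRCr8, chr8:10872580-10872829 on the plus strand and chr1:192033420-192033669 on the minus strand).
Casp1: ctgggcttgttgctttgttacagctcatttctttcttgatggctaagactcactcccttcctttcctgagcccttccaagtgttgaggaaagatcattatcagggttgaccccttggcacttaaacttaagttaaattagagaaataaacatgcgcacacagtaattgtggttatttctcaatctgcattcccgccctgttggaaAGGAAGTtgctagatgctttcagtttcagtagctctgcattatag
Pycard: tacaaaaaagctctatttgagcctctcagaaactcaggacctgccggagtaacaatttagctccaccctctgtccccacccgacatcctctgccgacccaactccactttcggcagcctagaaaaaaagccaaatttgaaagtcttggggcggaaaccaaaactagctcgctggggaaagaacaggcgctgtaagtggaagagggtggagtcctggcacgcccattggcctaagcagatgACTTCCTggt
The match lay 45 to 39 bases before the start in Casp1 and 10 to 4 bases before it in Pycard. RefSeq places the Casp1 gene at chr8:10746338-10882295, so its window precedes a start inside the gene. The Pycard window lies just outside its gene. As given above, 7.08% of all rat promoter windows held this motif.

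Grouping by inducer gave 5 or 6 called genes under each of the 4 inducers, with Il33 and Pycard not called under all of them. The 4 comparisons share the 3 controls and 1 estimate of the spread, and each has its own background. With MWCNT B as inducer 5 of the 9 genes were called higher (20.8% of all probe sets), with MWCNT C 6 (21.9%), with MWCNT D 6 (22.4%) and with amosite 5 (22.3%). Il1b, Il18, Il1rl1 and Casp1 were among them under every inducer, and only Il18 also kept all 4 calls under every alternative. Casp1 was at the threshold in MWCNT C tumors (log2 fold change 1.55, limma adjusted p = 0.049) and was not called there under 17 of 26 alternatives, among them quantile normalization (1.15, adjusted p = 0.15), centring (1.16, adjusted p = 0.14) and leaving out any 1 control (adjusted p = 0.077 to 0.13). In MWCNT B tumors Casp1 was not called under 9 of 26 alternatives, and Pycard in MWCNT C tumors under 13 of 26. Pycard missed the threshold in MWCNT B tumors (log2 fold change 1.45, limma adjusted p = 0.076) and Il33 in amosite tumors (1.51, limma adjusted p = 0.32). With the same log2 fold change of 1.45, Pycard was called in MWCNT B tumors when only the groups compared were fitted (adjusted p = 0.0047), without MWCNT D replicate 2 (adjusted p = 0.0099) or 3 (adjusted p = 0.041), and without both tumors with high pancreatic genes (adjusted p = 0.0023). The MWCNT B count was 1 without MWCNT B replicate 1, 3 without MWCNT B replicate 2 or control replicate 2, and 2 without control replicate 1 or 3. The MWCNT C count was 3 without MWCNT C replicate 1, either MWCNT B tumor or any 1 control, and the amosite count was 3 without amosite replicate 2 or control replicate 3. The Il33 calls with MWCNT B, C and D were each lost without any 1 control (adjusted p = 0.057 to 0.11).

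**Figure D2:**
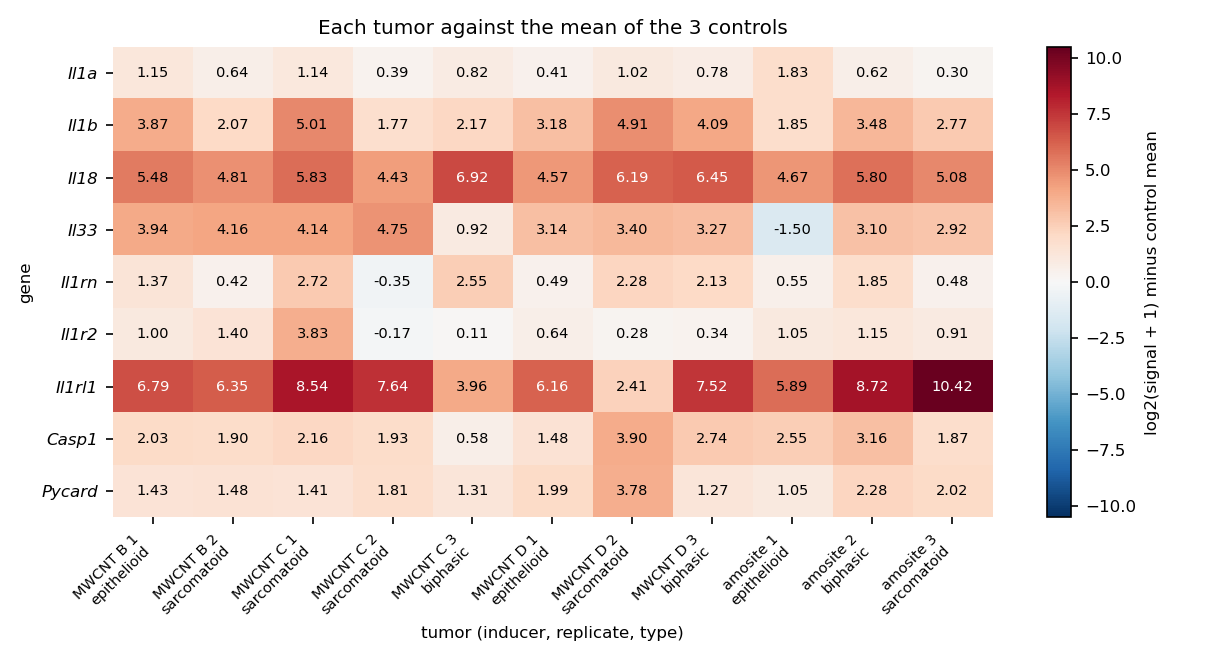
Log2(signal + 1) of each tumor minus the mean of the 3 controls for the 9 genes (rows), with tumors in columns by inducer, replicate and type. Red is higher and blue lower than the control mean. Il1a, Il1b, Il18, Il1rl1, Casp1 and Pycard are above it in every tumor, and Il33 is below it only in amosite replicate 1, at -1.50.

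The values within the inducer groups show which tumors set these results. Il33 had log2 signals of 12.53 and 12.75 (MWCNT B), 12.73, 13.34 and 9.51 (MWCNT C), 11.73, 11.99 and 11.86 (MWCNT D), and 7.09, 11.69 and 11.51 (amosite), against 8.13, 8.81 and 8.83 in controls. In the amosite group 1 epithelioid tumor lay below all controls and the other 2 near the MWCNT D tumors, and without that tumor the amosite value for Il33 was a log2 fold change of 3.01 (limma adjusted p = 0.019). The MWCNT minus amosite difference of Il33 was 2.02 (95% confidence interval -0.11 to 4.16), with a limma p of 0.061 and an adjusted p of 0.97.

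Il1rl1 ran the other way. It had log2 signals of 9.67 and 9.23 (MWCNT B), 11.42, 10.52 and 6.84 (MWCNT C), 9.04, 5.29 and 10.40 (MWCNT D), and 8.77, 11.60 and 13.30 (amosite). The highest pair of values of all tumors came from amosite, but the third amosite tumor was below 6 of the 8 MWCNT tumors. The MWCNT minus amosite difference was -2.13 (95% confidence interval -4.86 to 0.60, limma adjusted p = 0.97).

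Il1b had log2 signals of 8.61 and 6.81 (MWCNT B), 9.75, 6.51 and 6.91 (MWCNT C), 7.92, 9.65 and 8.83 (MWCNT D), and 6.59, 8.22 and 7.51 (amosite). All 4 groups overlapped, and the MWCNT minus amosite difference of 0.63 (95% confidence interval -0.85 to 2.12) was smaller than the spread within the MWCNT C group. Il18 had log2 signals of 10.30 and 9.63 (MWCNT B), 10.65, 9.25 and 11.74 (MWCNT C), 9.39, 11.01 and 11.27 (MWCNT D), and 9.49, 10.62 and 9.90 (amosite). Here too the groups overlapped, with a difference of 0.35 (95% confidence interval -0.86 to 1.57).

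No difference between inducers passed the test for any of the 9 genes. Between MWCNT and amosite tumors 0 genes were called, as were 0% of all probe sets, and the unadjusted p was 0.061 or more for all 9. The second Il33 probe set had a difference of 2.31 (95% confidence interval 0.05 to 4.57), with a limma p of 0.046 and an adjusted p of 0.97. Between MWCNT B and C together and MWCNT D tumors 0 genes were called (0.00322% of all probe sets), with the lowest unadjusted p, 0.098, for both Casp1 (-0.95, 95% confidence interval -2.10 to 0.20) and Pycard (-0.87, 95% confidence interval -1.92 to 0.19). A moderated F-test among the 4 inducers called 0 genes (0.00322% of all probe sets), with unadjusted p of 0.24 to 0.96. The intervals are wide, so that differences of several fold between inducers remain possible at this number of arrays.

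**Figure D3:**
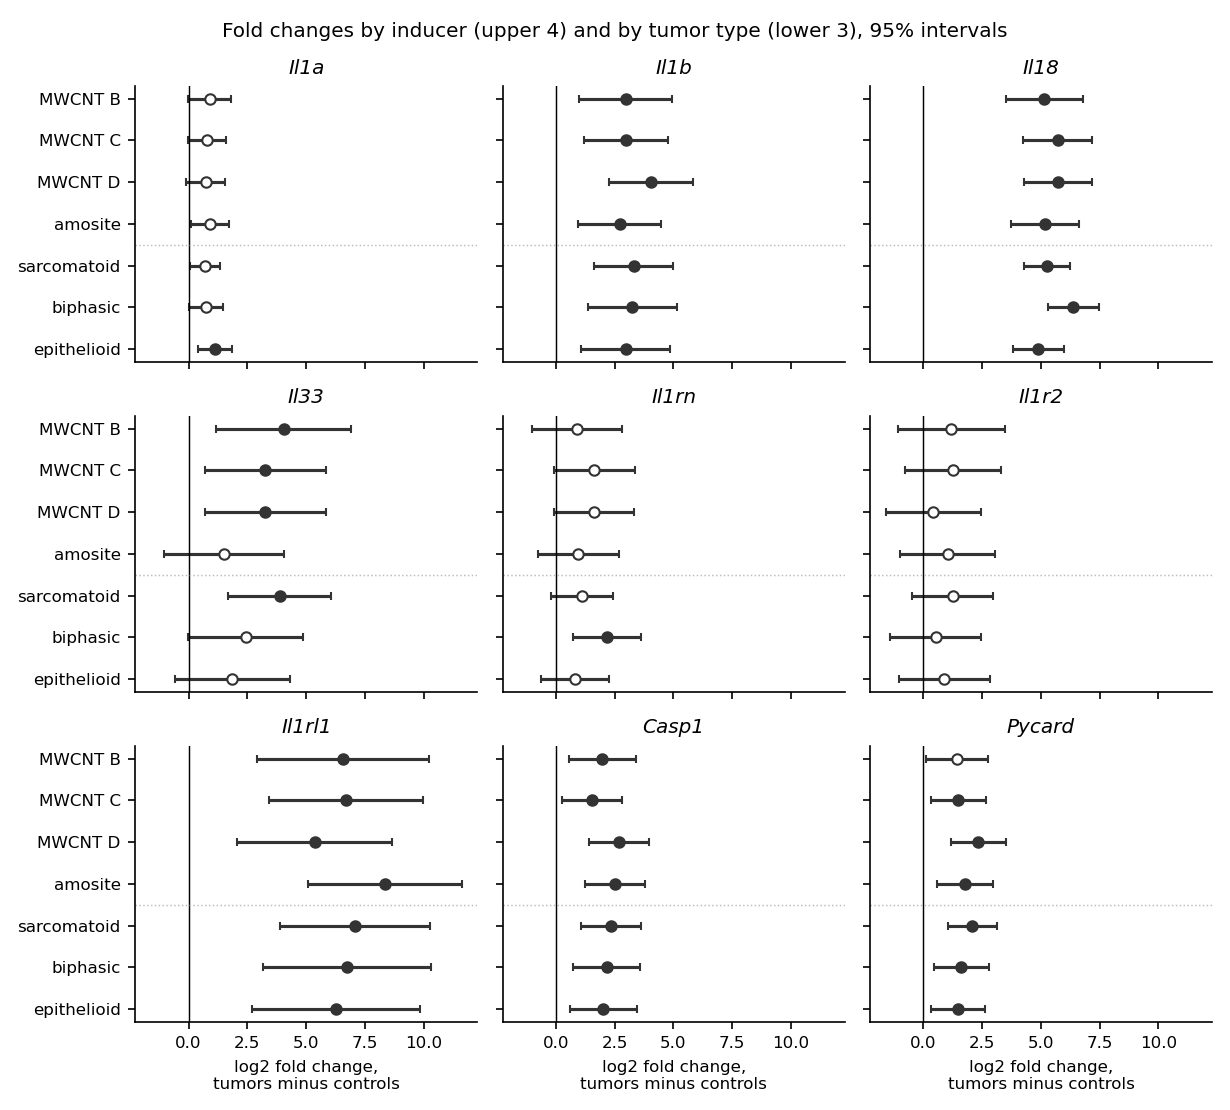
Log2 fold changes against the 3 controls with 95% confidence intervals for each gene, by inducer (upper 4 rows) and by tumor type (lower 3 rows). Filled points were called and open points were not. Il1b, Il18, Il1rl1 and Casp1 are called in all 7 comparisons. The Il33 intervals of amosite, biphasic and epithelioid tumors include 0.

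By tumor type, Il33 was called in sarcomatoid tumors, Il1rn in biphasic tumors and Il1a in epithelioid tumors, while Il1b, Il18, Il1rl1, Casp1 and Pycard were called in all 3 types. In epithelioid tumors the Pycard call (1.48, limma adjusted p = 0.038) was lost under 11 of 26 alternatives and the Casp1 call (2.01, adjusted p = 0.024) under 8 of 26. The calls came to 6 of 9 genes higher in sarcomatoid tumors (23.3% of all probe sets), 6 in biphasic tumors (24% of all probe sets) and 6 in epithelioid tumors (24.6%), each against the same 3 controls. The epithelioid count was 3 without MWCNT B replicate 1. Il33 had log2 signals of 12.75, 12.73, 13.34, 11.99 and 11.51 in sarcomatoid tumors, 9.51, 11.86 and 11.69 in biphasic tumors, and 12.53, 11.73 and 7.09 in epithelioid tumors. All 5 sarcomatoid tumors were well above the controls, and each of the other types held 1 low tumor. The log2 fold change of Il33 was 3.88 in sarcomatoid tumors (limma adjusted p = 0.0067), 2.43 in biphasic tumors (adjusted p = 0.095) and 1.86 in epithelioid tumors (adjusted p = 0.19). The sarcomatoid minus epithelioid difference of Il33 was 2.02 (95% confidence interval -0.18 to 4.21, limma adjusted p = 0.42). Without amosite replicate 1 the epithelioid fold change was 3.54 (adjusted p = 0.0019) and the biphasic one, through the shared spread, passed as well at 2.43 (adjusted p = 0.0072).

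Il1rn had log2 signals of 7.05, 6.63 and 6.35 in biphasic tumors, against 4.15, 4.42 and 4.93 in controls. The biphasic tumors stood clear of the controls, and the log2 fold change was 2.18 (SE 0.67, limma adjusted p = 0.018). The call was lost after centring (1.72, adjusted p = 0.052), without MWCNT C replicate 3 (1.99, adjusted p = 0.057) and without control replicate 1 (2.00, adjusted p = 0.061). The Il1rn change was 1.11 in sarcomatoid tumors (adjusted p = 0.14) and 0.80 in epithelioid tumors (adjusted p = 0.34). Il1a had log2 signals of 6.05, 5.31 and 6.73 in epithelioid tumors, against 4.96, 4.55 and 5.18 in controls, with a log2 fold change of 1.13 (SE 0.33, limma adjusted p = 0.014). Without amosite replicate 1, which had the highest value, it was 0.78 (adjusted p = 0.061). The Il1a call was lost under 9 of 25 alternatives, among them centring (0.58, adjusted p = 0.16), quantile normalization (0.63, adjusted p = 0.13), a pseudocount of 16 (0.85, below the fold threshold), the floor at a log2 signal of 5 (0.97, below the fold threshold) and leaving out control replicate 2 (0.96, adjusted p = 0.059).

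Il18 came nearest to a difference between types. It had log2 signals of 11.74, 11.27 and 10.62 in biphasic tumors, against 10.30, 9.39 and 9.49 in epithelioid tumors, and the sarcomatoid values were 9.63, 10.65, 9.25, 11.01 and 9.90. The lowest biphasic value, 10.62, was above the highest epithelioid value, 10.30. The share of all probe sets that part these 2 types in this way was not counted, so nothing is read from it. The biphasic minus epithelioid difference was 1.48 (95% confidence interval 0.40 to 2.57), with a limma p of 0.011 and an adjusted p of 0.95, and the sarcomatoid minus biphasic difference was -1.12 (95% confidence interval -2.09 to -0.15), with a limma p of 0.027 and an adjusted p of 0.44. Neither passed over all probe sets. No gene of the 9 was called between sarcomatoid and epithelioid tumors (0.76% of all probe sets), between sarcomatoid and biphasic tumors (0.248%), between biphasic and epithelioid tumors (0%) or in the F-test among the 3 types (0.609%), in which Il18 had the lowest unadjusted p, 0.026 (adjusted p = 0.37).

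Across the 11 tumors, Il18 and Il1rn, a ligand and an antagonist of the family, varied together. Pearson r was 0.92 (permutation p = 0.00021, Benjamini-Hochberg adjusted p = 0.013 over 63 relations) and Spearman rho was 0.86 (permutation p = 0.0011, adjusted p = 0.068). Without the 2 tumors farthest from the median of Il18, r was 0.90. MWCNT C replicates 1 and 3, MWCNT D replicates 2 and 3 and amosite replicate 2 were high in both, and MWCNT C replicate 2 was lowest in both. These include all biphasic tumors, and the part of tumor type in the relation was not tested. Il1rn was below a log2 signal of 5 in MWCNT D replicate 1 (4.99), MWCNT C replicate 2 (4.15), MWCNT B replicate 2 (4.92) and amosite replicate 3 (4.98). Such values cannot be told from background. The 63 relations were 36 pairs of the genes and 27 pairs of a gene with the mean of the macrophage, neutrophil or mast cell genes, and no other r passed the adjustment.

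**Figure D4:**
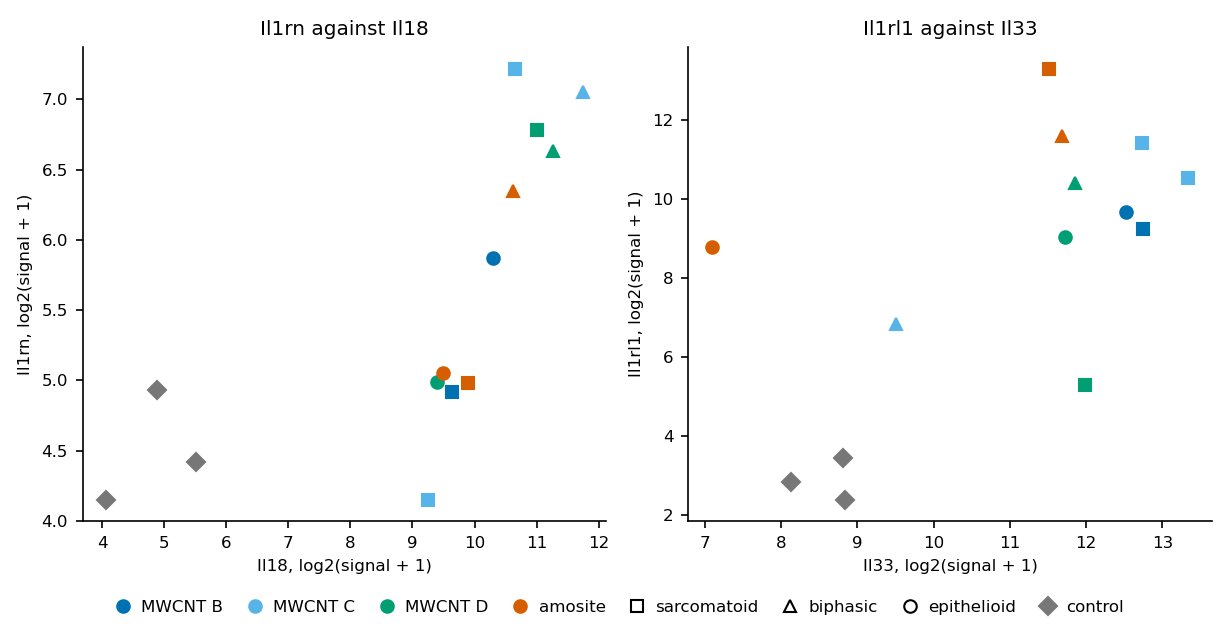
Log2(signal + 1) of Il1rn against Il18 (left) and of Il1rl1 against Il33 (right) in 11 tumors (coloured by inducer, shaped by type) and 3 controls (gray). Il1rn follows Il18 over the tumors (r = 0.92), and Il1rl1 shows no such relation to Il33 (r = 0.28).

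The ligand and receptor pair Il33 and Il1rl1 had an r of 0.28 (permutation p = 0.39, adjusted p = 0.74, rho 0.18) and -0.09 without the 2 tumors farthest from the median of Il33. MWCNT D replicate 2 had the lowest Il1rl1 of all tumors with an Il33 of 11.99, and amosite replicate 1 had the lowest Il33 with an Il1rl1 of 8.77. Casp1 and Pycard had an r of 0.61 (permutation p = 0.064, adjusted p = 0.57), which was -0.07 without the 2 tumors farthest from the median of Casp1, so it rests on those tumors. The macrophage mean had an r of 0.61 with Il1b (permutation p = 0.046, adjusted p = 0.57), 0.49 with Casp1 (adjusted p = 0.71), 0.34 with Pycard (adjusted p = 0.74) and 0.01 with Il18 (adjusted p = 0.98). With Il33 it was 0.73 (adjusted p = 0.31) but -0.43 without the 2 tumors farthest from the median of the macrophage mean. The mast cell mean had an r of 0.30 with Il1rl1 (adjusted p = 0.74).

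As a description over the same 11 tumors, the gene most like each member among 7597 genes with a mean log2 signal of at least 8 was found by Pearson r. For Il1b it was Itgb2, the beta chain of leukocyte integrins (r = 0.896), and for Il1rn it was Il18 itself (0.916). For Pycard it was Irag2 (0.952), for Il1rl1 Mrpl55, a mitochondrial ribosomal protein (0.942), for Il33 Ostf1 (0.920), for Il1r2 Cnksr3 (0.907), for Casp1 Tbc1d4 (0.889), for Il18 Me2, a mitochondrial malic enzyme (0.867), and for Il1a Aldh4a1 (0.805). Each is the highest of 7597 correlations over 11 tumors and carries no test.

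Further genes of the pathway were followed from lists taken by function. Among further receptors, 3 of 4 measured genes were called higher in tumors than in controls and 0 lower, where 24.5% of all probe sets were called higher. Il1r1, the signaling IL-1 receptor, averaged 10.22 ± 0.81 in tumors and 7.60 ± 0.41 in controls (SD, n = 11 and 3) on the log2 scale, a log2 fold change of 2.62 (limma adjusted p = 0.00028). The other 2 were its partner Il1rap (2.64, adjusted p = 0.00022) and the inhibitory receptor Sigirr (1.48, adjusted p = 0.0030), which are named for completing the count, after their values were seen. Of 3 further ligands and antagonists 1 was called, Il18bp, the IL-18 binding protein, also named after its value was seen (1.84, adjusted p = 0.00022), and 0 were lower.

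Of 12 measured inflammasome and pyroptosis genes 8 were called higher and 0 lower, where 24.5% of all probe sets were called higher. Casp8, an initiator caspase that can also cut IL-1 beta, had a log2 fold change of 4.24, with log2 signals of 9.03 to 10.64 in tumors and 5.02 to 5.42 in controls (limma adjusted p = 1.1e-08). Gsdmd, the pore-forming substrate of caspase 1, had 3.30, with 8.54 to 10.04 in tumors and 5.68 to 6.16 in controls (adjusted p = 4.6e-07). Casp12 had 2.66 (adjusted p = 0.0028) and Ninj1, which ruptures the membrane of dying cells, 2.39 (adjusted p = 2.3e-06). The median log2 fold change of the 12 genes was 2.00, against 0.34 over all probe sets.

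Of 19 measured genes of receptor signaling 5 were called higher and 0 lower, with a median log2 fold change of 0.50. This was near the 24.5% of all probe sets called higher and their median of 0.34. The called genes included the adaptor Myd88 (2.22, limma adjusted p = 7.2e-07) and the signaling inhibitor Irak3 (1.97, adjusted p = 0.0038). They also included Nfkbia and Nfkb1 of the NF-kB system (1.83, adjusted p = 0.00021, and 1.61, adjusted p = 0.00017). Of 22 IL-1 and NF-kB response genes 14 were called higher and 0 lower, with a median log2 fold change of 3.48, against 24.5% and 0.34 over all probe sets (15.5% called higher after centring). The 22 include Il1rn, which is also 1 of the 9 genes and was not called. Vcam1, an adhesion molecule for leukocytes, had the largest log2 fold change of those named, 5.28 (limma adjusted p = 3.8e-07), and a second adhesion molecule, Icam1, had 3.75 (adjusted p = 5.6e-05). Cxcl1, a chemokine for neutrophils, had 5.01 (adjusted p = 8.9e-05), and Lcn2, which binds iron carriers of bacteria, had 3.97 (adjusted p = 0.0092). The control means of Cxcl1 (3.14) and Lcn2 (4.81) were below a log2 signal of 5, so the size of both changes depended on dim signals. All the response genes also answer to other signals than IL-1. In the comparisons between inducers and between tumor types, 0 genes of these 5 lists were called.

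**Figure D5:**
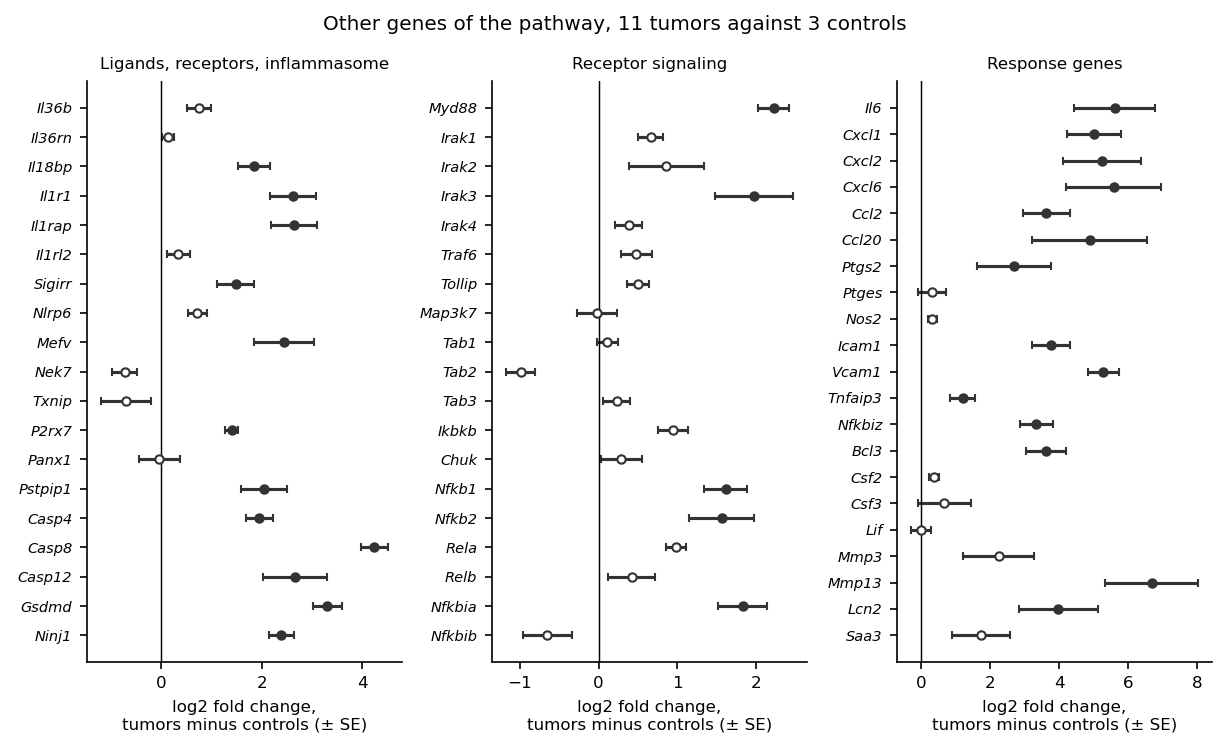
Log2 fold changes, 11 tumors minus 3 controls, with SE for the other ligands, receptors and inflammasome genes (left), receptor signaling (middle) and response genes (right). Filled points were called. No called gene is lower in tumors, and Casp8 (4.24) and Gsdmd (3.30) lead the left panel.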

How the data were processed

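RNA of 11 tumors and 3 control peritoneal tissues was hybridized to 1 Affymetrix array each, so that the number of arrays limits the precision. The authors normalized the arrays with PLIER in the Transcriptome Analysis Console, per the labels, and deposited linear signal intensities of 31099 probe sets without detection calls, scan dates or batches. Here 57 Affymetrix control probe sets were removed and log2(signal + 1) was tested, so fold changes are on that scale and understate those of dim genes. Symbols came from the array annotation, and 20758 of 20826 single-gene probe sets matched a RefSeq gene by ID. The array build is not given in the sources used here.

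Groups came from the sample labels. Fits used limma 3.58.1 in R 4.3.3 over 31042 probe sets, in a 2-group (tumors, controls), a 5-group (inducers) and a 4-group (types) model without covariates, and were tested on simulated data. Confidence intervals are moderated 95% intervals of limma. Exact two-sided permutation tests and correlations with 100000 permutations used Python 3.11.15. The replicates are separate animals for the tumors, and p-values measure the spread between these samples.

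Named genes were all 10 members, for each pathway list up to 4 called genes with the largest change and a mean log2 signal of at least 8 in the higher group, and the most alike gene of each member. The members and lists were chosen with earlier results of these data known. Lists of endothelial (0 of 11 called), fibroblast (4 higher and 1 lower of 12), T cell (5 higher of 11) and adipocyte (1 lower of 9) genes were also read. Beside these stand 24.5% higher and 10.4% lower of all probe sets. Alternatives were quantile normalization, median centring, a pseudocount of 16, values below a log2 of 5 set to 5, a filter at a mean of 6, fits without moderation, with trend, of only the groups compared or with a replicate block, an adjusted p below 0.001, the probe set with the largest change, and leaving out each array. Leaving out both tumors with high pancreatic genes was chosen after seeing the data.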

Additional observations from a re-analysis of the deposited data

Results flagged for a closer look

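A gap test was run on 18 combinations of a gene with the MWCNT or the sarcomatoid tumors, of which 5 stood out, and chance gives about 1 in 20. Among the sarcomatoid tumors MWCNT D replicate 2 was far above the others for Casp1, at a log2 signal of 11.26 (next 9.52), and for Pycard, at 11.34 (next 9.58). For Pycard it also stood apart among the 8 MWCNT tumors (11.34, next 9.55). This tumor is 1 of the 2 with high pancreatic genes. Its T cell mean of 10.31 was the highest of all tumors, and its mesothelial mean of 7.16 the lowest. The part of these in its Casp1 and Pycard values was not tested. MWCNT C replicate 3 was the lowest MWCNT tumor for Il33, at 9.51 (next 11.73). MWCNT C replicate 1 was the highest MWCNT tumor for Il1r2, at 9.70 (next 7.27).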

How the results depend on the processing

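No gene reversed its direction past the threshold under any alternative, and the 7 comparisons between tumors or among groups of tumors kept 0 called genes under all 27 settings. The count of 6 for tumors against controls was 5 to 7 when 1 array was left out and 3 at an adjusted p below 0.001. At that threshold 1 gene was called in each of the inducer and type comparisons with controls. For MWCNT B tumors (5 called) leaving out 1 array gave 1 to 6, centring 2, and the floor (values below a log2 signal of 5 set to 5) or no moderation 3. For MWCNT C tumors (6 called) leaving out 1 array gave 3 to 6, and quantile normalization, centring, the floor or no moderation 3. For epithelioid tumors (6 called) leaving out 1 array gave 3 to 6, and quantile normalization, centring or the floor 3. Leaving out 1 array gave 4 to 7 for MWCNT D (6 called), 3 to 6 for amosite (5 called), 6 to 7 for sarcomatoid (6 called) and 4 to 7 for biphasic tumors (6 called). Over single genes, 167 values fell below the threshold under an alternative, 16 passed it anew and 3351 kept their side. The last count holds 241 values from each of the 7 comparisons without controls, where no gene was called to begin with. Most losses were in MWCNT C (46) and epithelioid tumors (34) against controls.

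With the replicate block the tumor count stayed at 6, MWCNT B gave 4 and epithelioid tumors gave 1, since all 3 epithelioid tumors carry replicate number 1. The deviations of same-numbered samples had correlations of -0.29 to 0.39 (median 0.02), against -0.45 to 0.45 for other pairs. Whether same-numbered samples shared a batch was not tested, since the labels give no batches. The causes of the other changes were not tested. Where 1 array leaves a group with a single tumor, that tumor is assumed to vary like the others. Without detection calls, values below a log2 signal of 5, such as Il1b and Il1rl1 in controls, cannot be told from background. With the floor, Il1rl1 was no longer called in MWCNT B (4.45, adjusted p = 0.079), MWCNT D (3.24, adjusted p = 0.14), biphasic (4.62, adjusted p = 0.054) and epithelioid tumors (4.16, adjusted p = 0.079). Il1b was then no longer called in MWCNT B tumors (2.71, adjusted p = 0.053).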
